A study of Mus musculus with 128 samples.

Results

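The 10 genes described here are immediate early genes: Fos, Fosb, Jun, Junb, Egr1, Ier2, Ier3, Dusp1, Nr4a1 and Btg2. They were taken by symbol from a mouse liver read-count table of 35275 genes, in which each symbol had 1 row, and were followed across all libraries of the series. Male wild-type mice of the strains C57BL6/J and BALB/c, bought at 8 weeks of age, were accustomed for 1 week to a nightly feeding window. On the test day they were fasted from 10 pm until 7 pm of the next day and had no water from 4 pm. At 7 pm they received chow with plain water (the control drink) or with water holding 20% glucose, 20% sucrose or 20% fructose. Livers were taken at 7 pm, before feeding (0 h, water groups), and 3, 6 or 12 h after feeding began, which made 26 groups of strain, drink and time, 24 with 5 libraries and 2 (BALB/c glucose 12 h and BALB/c fructose 12 h) with 4. Clock time moved with feeding time in all groups, so the effects of feeding and of time of day cannot be told apart.

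Immediate early genes are transcribed within minutes of a stimulus by factors already present in the cell, so they need no new protein. Hormones, growth factors, cytokines and stress reach them through MAP kinases acting on serum response factor and its ETS partners, and through cAMP and calcium acting on CREB. Their mRNAs are short-lived, and a burst is usually over within hours. Fos, Fosb, Jun and Junb encode subunits of the AP-1 transcription factor. Egr1 encodes a zinc-finger factor that binds GC-rich sites, and Nr4a1 an orphan nuclear receptor that acts on glucose production in liver. Ier2 and Ier3 encode small immediate early response proteins. Dusp1 encodes a phosphatase that switches MAP kinases off, and Btg2 an antiproliferative protein that promotes mRNA deadenylation. In liver the set is known for its burst after injury or partial hepatectomy and for its response to glucagon, adrenaline and insulin.

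The sequence before the start site is shown for 4 of the genes whose promoters hold a match to a searched motif. Promoter windows from RefSeq (build GRCm38.p6), from 250 bases before to 50 bases after the start site, matched 8 of the 10 genes by symbol. Egr1 and Ier2 had no window and were not searched for any motif. Each line gives the 250 bases before the start site, 5′ to 3′ on the gene's strand, with the matched motif in capitals. Dusp1 lies at chr17:26508473-26508722 (minus strand), Btg2 at chr1:134079156-134079405 (minus strand), Fos at chr12:85473640-85473889 (plus strand) and Nr4a1 at chr15:101266596-101266845 (plus strand).
Dusp1: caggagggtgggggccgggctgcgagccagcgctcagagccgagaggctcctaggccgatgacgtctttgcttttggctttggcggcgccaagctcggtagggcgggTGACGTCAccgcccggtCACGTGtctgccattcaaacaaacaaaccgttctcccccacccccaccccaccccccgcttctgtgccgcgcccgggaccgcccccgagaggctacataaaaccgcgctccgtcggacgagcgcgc
Btg2: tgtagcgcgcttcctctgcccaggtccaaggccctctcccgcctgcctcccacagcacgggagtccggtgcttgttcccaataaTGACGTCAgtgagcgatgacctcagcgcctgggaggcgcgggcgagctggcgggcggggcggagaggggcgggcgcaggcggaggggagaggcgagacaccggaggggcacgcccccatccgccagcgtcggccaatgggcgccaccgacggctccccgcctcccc
Fos: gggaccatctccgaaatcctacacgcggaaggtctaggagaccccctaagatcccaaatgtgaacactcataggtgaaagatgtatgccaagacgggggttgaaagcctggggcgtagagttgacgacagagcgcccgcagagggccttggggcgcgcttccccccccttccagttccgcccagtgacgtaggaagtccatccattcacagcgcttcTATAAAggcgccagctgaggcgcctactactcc
Nr4a1: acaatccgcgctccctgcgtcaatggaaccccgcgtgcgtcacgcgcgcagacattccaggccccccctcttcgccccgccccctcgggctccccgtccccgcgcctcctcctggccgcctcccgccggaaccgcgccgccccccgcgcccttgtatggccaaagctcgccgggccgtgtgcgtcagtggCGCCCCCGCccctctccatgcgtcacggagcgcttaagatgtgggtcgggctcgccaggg
The cAMP response element TGACGTCA, the site of CREB, was in the windows of Dusp1, starting 143 bases before the start site, and Btg2, starting 166 bases before it. It was in 1.79% of all 32851 windows. The Dusp1 window also held the E-box CACGTG, 126 bases before the start site, which was in 7.15% of windows. The TATA box TATAAA was in the windows of Fos, 33 bases before the start site, and Junb, at the start site itself, and in 13.6% of windows. The EGR motif GCGGGGGCG was in the windows of Nr4a1, 60 bases before the start site on the other strand, and Fosb, 50 bases before it, and in 2.91% of windows. The AP-1 motif TGANTCA, the CArG box of serum response factor and the ETS motif CCGGAAGT were found in none of the 8 windows, and in 7.81%, 1.63% and 3.89% of all windows. Both strands were searched, and no 2 matches overlapped. A match is a description of these letters and not evidence of a bound site.

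Total counts per library ran from 18541545 to 43118895. Levels are given as CPM, the counts of a gene divided by the total of its library and set to a common scale, adjusted by edgeR's TMM method, which corrects library sizes for differences in composition. Nothing in the labels says that replicates were separate mice beyond their being separate samples, so the p-values speak of the spread among libraries, which may be technical. In RNA from whole liver, fewer cells of a type and less RNA per cell cannot be told apart. All 7 hepatocyte markers looked for had reads in every library. Skeletal muscle markers, which do not belong in liver, had a summed median of 205.1, 94.3, 232.1 and 2.15 CPM at 0, 3, 6 and 12 h, so these markers moved with time. Adrenal markers were higher at 6 h by the test (6 of 6 markers against 3 h). Their summed median was 3.27 CPM at 3 h and 5.17 CPM at 6 h, and their highest sums were 17.3 and 602.6 CPM. Medians of the 10 genes in libraries with little muscle RNA stand after the time results below.

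Across all libraries Ier2 and Dusp1 had the highest levels per transcript length and Fosb the lowest. On the authors' deposited FPKM scale, which divides by gene length, the median over all libraries was 20.9 for Ier2 (lowest 9.78, highest 86.1) and 13.8 for Dusp1 (4.31 to 50.7). Junb had a median of 5.18 FPKM and Jun of 4.74, with ranges of 2.58 to 158.8 and 0.959 to 55.0, so these neighbours in the order overlapped across nearly their whole range. Btg2 followed at 2.27 FPKM and Ier3 at 1.52. Egr1, Nr4a1 and Fos had medians of 0.70, 0.492 and 0.362 FPKM, and Fosb of 0.0452.

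The low members rested on few reads. Fosb had a median of 4 reads per library and none in 16 libraries, Fos a median of 19 reads, Nr4a1 29, Ier3 40 and Egr1 73. Egr1 was at 0 reads in 1 library. Jun, Junb, Ier2, Dusp1 and Btg2 had medians between 157 and 783 reads. All 10 genes passed the filter on low counts.

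Before any comparison, 2 libraries stood apart in these genes. In C57BL6/J glucose 3 h replicate 1, Egr1 was at 556.1 CPM, against 2.07, 2.81, 3.08 and 1.83 CPM in replicates 2 to 5. Fos was at 114.7 CPM against 0.846, 1.60, 0.783 and 1.05 CPM. Junb was at 352.2 CPM against 7.36, 7.76, 8.47 and 8.13 CPM. The library lay above the other 4 of its group in 9 of the 10 genes, and it was the highest of all libraries for Fos, Fosb, Jun, Junb, Egr1, Ier2 and Ier3. Relative to the mean of the other 4 it was 227-fold higher for Egr1, 107-fold for Fos, 74.2-fold for Fosb, 44.4-fold for Junb, 16.9-fold for Btg2, 11.2-fold for Ier3, 8.23-fold for Jun, 7.62-fold for Nr4a1 and 5.75-fold for Ier2. Dusp1 did not stand apart there, at 43.1 CPM against 62.3, 26.5, 29.5 and 32.7 CPM.

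The same library was high in other genes, including cytokines and chemokines. Of 16886 genes tested, 71 were at least 4-fold above the highest of its group (at 5 CPM or more) and 3 at least 4-fold below the lowest. Besides Egr1, the largest ratios to the highest other library were those of Igfbp1, a fasting- and stress-induced binding protein of insulin-like growth factors (734.6 CPM against 1.01 to 4.36), and Cxcl10, an interferon-induced chemokine (437.5 CPM against 1.76 to 2.85). Pck1, the gluconeogenic enzyme gene switched off by feeding, was at 738.7 CPM against 36.2 to 121.5 CPM. Of a list of 21 other immediate early transcription factors, 16 were highest there, and of 32 further immediate early and feedback genes, 25. The summed neutrophil markers were 54.3 CPM against 1.18 to 4.59 CPM, with 6 of 7 highest there and none at 0. Kupffer cell markers summed to 165.8 CPM, within the 122.7 to 179.5 CPM of the others, and endothelial markers to 179.5 CPM, below their 198.4 to 237.9 CPM. The part of these cells in the values of the 10 genes was not tested.

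The second library was BALB/c water 0 h replicate 1, with another order of genes. Nr4a1 was at 52.5 CPM, against 0.878, 0.588, 1.85 and 1.14 CPM in replicates 2 to 5 (47.1-fold above their mean). Btg2 was at 100.3 CPM against 5.73, 6.29, 6.23 and 13.8 CPM (12.5-fold). Fos was 7.15-fold, Egr1 5.87-fold, Junb 4.19-fold, Jun 3.72-fold and Dusp1 3.07-fold above the mean of the other 4. Fosb lay within their range. Here 123 genes were at least 4-fold above the highest of the group and 170 at least 4-fold below the lowest. Igfbp1 was at 10550.1 CPM against 46.0 to 99.5 CPM, and 11 glucocorticoid-responsive genes summed to 24260.7 CPM against 4832.5 to 7761.9 CPM. Of these 11, 7 were highest there and 1 (Sgk1) was at least 4-fold above the highest of the others, with Tat alone at 13740.9 CPM. The neutrophil markers of this library, 6.79 CPM, lay within the 3.42 to 9.89 CPM of the others.

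**Figure D1:**
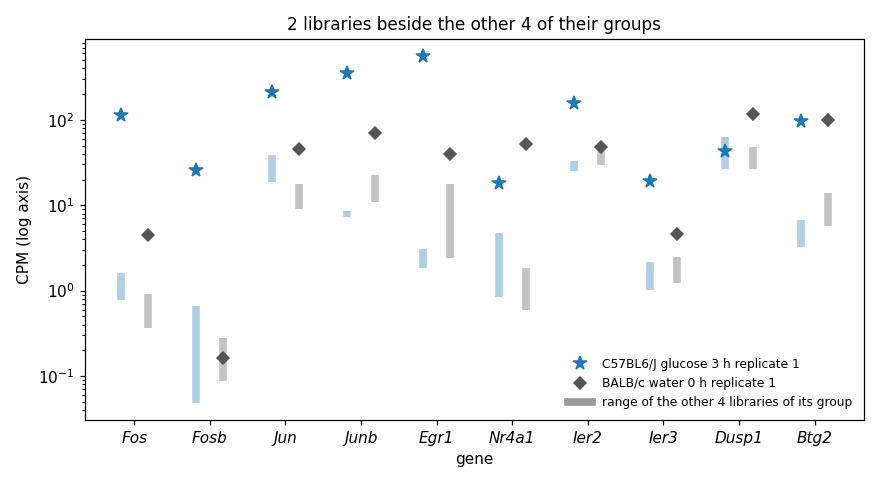
Levels of the 10 genes (CPM, log axis) in C57BL6/J glucose 3 h replicate 1 (stars) and BALB/c water 0 h replicate 1 (diamonds), each beside a bar spanning the other 4 libraries of its group. The stars lie above their bars for every gene but Dusp1, with Egr1 at 556.1 CPM, and the diamonds lie farthest above their bars for Nr4a1 and Btg2.

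High values of several of these genes in 1 library were not frequent otherwise. Counting a gene where it had at least 10 reads and was the highest of its group and at least 4-fold above the median of the rest, 105 libraries had 0 such genes, 18 had 1 or 2, 3 had 3 or 4, and the 2 libraries above had 5 or more. The 3 were C57BL6/J sucrose 3 h replicate 4 (Fos, Fosb and Egr1), C57BL6/J fructose 3 h replicate 4 (Fos, Fosb, Egr1 and Nr4a1) and BALB/c water 12 h replicate 1 (Fosb, Jun and Egr1). In C57BL6/J sucrose 3 h, Fos was at 0.907, 0.208, 0.775, 14.9 and 0.574 CPM in replicates 1 to 5, and in C57BL6/J fructose 3 h at 1.22, 0.428, 0.971, 8.35 and 0.913 CPM. In both groups replicate 4 alone was high.

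A further 2 libraries are named where they matter. C57BL6/J water 0 h replicate 2 had Pck1 at 160.3 CPM against 3490.3 to 5151.5 CPM in the other fasted libraries of that strain, and Igfbp1 at 1.47 CPM against 66.8 to 76.1 CPM. C57BL6/J glucose 6 h replicate 5 had a read in 14289 genes, the fewest of all libraries (next 15971, most 19801), and is the library with Egr1 at 0.

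Differences were tested with edgeR's quasi-likelihood method in 1 model over all libraries, with p-values adjusted by Benjamini-Hochberg over the 16886 genes tested. A gene is said to rise or fall where the adjusted p is under 0.05. The 3 water comparisons share the fasted libraries, and the all-drink comparisons of 3, 6 and 12 h share libraries with each other.

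On plain water these genes moved in different directions from their fasted levels. Over both strains together, Jun and Fosb rose and Junb, Nr4a1 and Dusp1 fell at 3 h. At 6 h Junb, Nr4a1 and Ier2 fell, and at 12 h Dusp1, Nr4a1 and Btg2 fell. The count was 5 of 10 genes at 3 h (2 higher, 3 lower), against 25.4% of all genes, 3 of 10 at 6 h, against 28.8%, and 3 of 10 at 12 h, against 17.6%. Within C57BL6/J it was 0 of 10 at 3 h (11.1% of all genes), 0 of 10 at 6 h (13.7%) and 2 of 10 at 12 h (7.67%). Within BALB/c it was 4 of 10 (18.2%), 3 of 10 (18.9%) and 3 of 10 (9.97%). The median log2 fold change of the 10 genes was −0.47, −0.54 and −0.53 at 3, 6 and 12 h, where that of all genes was −0.01, −0.00 and −0.01.

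Without BALB/c water 0 h replicate 1, which is 1 of the 10 fasted libraries, fewer of the calls over both strains were made. Only Jun at 3 h (1 of 10, against 24% of all genes), Junb at 6 h (1 of 10, against 25.5%), and Egr1 and Dusp1 at 12 h (2 of 10, against 17.6%) then passed. Leaving out C57BL6/J glucose 3 h replicate 1, which is in none of these comparisons but adds to the shared estimate of spread, gave 6, 4 and 4 genes at 3, 6 and 12 h, the added ones being Ier2, Btg2 and Egr1 in that order.

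Jun, the AP-1 subunit that can pair with itself or with Fos proteins, rose at 3 h on water. In fasted C57BL6/J it was at 10.3, 31.7, 12.7, 21.2 and 13.1 CPM in replicates 1 to 5, and at 3 h on water at 31.4, 42.1, 29.5, 17.1 and 21.2 CPM. In fasted BALB/c it was at 45.9, 8.92, 10.4, 17.9 and 12.2 CPM, and at 3 h on water at 58.6, 52.5, 25.2, 30.1 and 44.9 CPM. The C57BL6/J groups overlapped through fasted replicates 2 (the library named above as low in Pck1 and Igfbp1) and 4. The BALB/c groups overlapped through fasted replicate 1. The log2 fold change over both strains was 0.90 ± 0.29 (SE, n = 10 against 10, edgeR adjusted p = 0.0143), with 10 of 10 libraries above the fasted mean log2 CPM of their strain. Counts of libraries higher or lower are all taken on this scale, against the mean of the other group. Without BALB/c water 0 h replicate 1 it was 1.22 ± 0.30 (adjusted p = 0.00087). Of 17 alternatives 4 did not make the call, among them the fits without replicate 2, 3 or 5. The fit without C57BL6/J water 0 h replicate 2 alone made it.

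Junb, an AP-1 subunit that can oppose Jun, fell at 3 and 6 h on water. In fasted C57BL6/J it was at 15.1, 6.77, 19.8, 21.3 and 22.5 CPM, and at 6 h on water at 6.11, 7.2, 10.6, 6.01 and 9.76 CPM. In fasted BALB/c it was at 70.4, 15.7, 17.9, 10.9 and 22.6 CPM, and at 6 h on water at 6.08, 5.40, 6.83, 8.03 and 6.51 CPM. The BALB/c groups did not overlap, and the C57BL6/J groups overlapped through fasted replicate 2, the library named above as low in Pck1 and Igfbp1. Its log2 fold changes were −1.34 ± 0.42 at 3 h (adjusted p = 0.0107) and −1.59 ± 0.42 at 6 h (adjusted p = 0.00202), with 10 of 10 libraries lower at each time. The 6 h call was made in all 17 alternatives, between −1.72 and −1.20, and the 3 h call was lost without replicate 5 and without BALB/c water 0 h replicate 1 (−0.98 ± 0.42, adjusted p = 0.0773).

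Fosb, which pairs with Jun proteins, rose at 3 h on water at very low levels. It was at 0.204, 0.130, 0.173, 0 and 0 CPM in fasted C57BL6/J and at 0.215, 0.398, 1.89, 0.605 and 0.144 CPM at 3 h on water. In BALB/c it was at 0.162, 0.277, 0.0905, 0.0923 and 0.0878 CPM fasted and at 0.189, 0.692, 0.179, 0.344 and 0.0935 CPM at 3 h. The strains each overlapped between the times. Over both strains the log2 fold change was 1.81 ± 0.70 (adjusted p = 0.0462, 9 of 10 libraries higher), and leaving out any of replicates 2, 3, 4 or 5 ended the call. Fos had a log2 fold change of 0.03 ± 0.60 at 3 h (adjusted p = 0.984, 95% interval −1.16 to 1.23).

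Dusp1, whose phosphatase ends MAP kinase signals, fell at 3 and 12 h on water. In fasted C57BL6/J it was at 34.3, 24.7, 28.6, 64.4 and 78.2 CPM, and at 12 h on water at 15.8, 10.6, 14.8, 21.4 and 16.1 CPM. In fasted BALB/c it was at 115.7, 26.5, 42.0, 33.6 and 48.6 CPM, and at 12 h on water at 34.0, 21.3, 11.5, 21.1 and 16.3 CPM. The C57BL6/J groups did not overlap, and in BALB/c only replicate 1 at 12 h reached the fasted range. At 12 h the log2 fold change was −1.45 ± 0.24 (adjusted p = 1.15e-06), with 10 of 10 libraries lower, and it held in all 17 alternatives, between −1.55 and −1.20. At 3 h it was −0.76 ± 0.23 (adjusted p = 0.00928), and −0.51 ± 0.23 (adjusted p = 0.098) without BALB/c water 0 h replicate 1; it was also lost without replicate 5.

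The falls of Nr4a1 and Btg2 rested on BALB/c water 0 h replicate 1. Nr4a1 had log2 fold changes of −1.44 ± 0.48, −1.57 ± 0.48 and −1.50 ± 0.48 at 3, 6 and 12 h (adjusted p = 0.0163, 0.00765 and 0.017), each with 7 of 10 libraries lower. Without that library they were 0.24, 0.11 and 0.17 (adjusted p = 0.748, 0.899 and 0.834). Btg2 had −1.04 ± 0.37 at 12 h (adjusted p = 0.0378) and −0.18 ± 0.34 without it (adjusted p = 0.784). In fasted C57BL6/J, Nr4a1 was at 0.560, 1.04, 1.51, 1.69 and 1.21 CPM, and at 3 h on water at 0.687, 1.87, 2.65, 2.78 and 0.467 CPM. These groups overlapped. Ier2 fell at 6 h by 0.48 on the log2 scale (−0.48 ± 0.19, adjusted p = 0.049, 9 of 10 libraries lower), and the call was lost in 6 of 17 alternatives.

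Egr1 was higher at 12 h on water in C57BL6/J. There it was at 4.69, 1.76, 2.59, 4.54 and 1.95 CPM fasted and at 14.6, 9.00, 75.9, 25.7 and 6.33 CPM at 12 h, with no overlap. In BALB/c it was at 40.0, 3.61, 2.40, 3.37 and 17.9 CPM fasted and at 43.2, 25.1, 3.40, 1.68 and 3.58 CPM at 12 h, where the groups overlapped. Compared within C57BL6/J, in the model of all libraries, the log2 fold change was 3.09 ± 1.02 (adjusted p = 0.0423). This call was lost in 6 of 16 alternatives, among them the fit without C57BL6/J water 0 h replicate 2. Over both strains it was 1.64 ± 0.68 (adjusted p = 0.0841), and 2.13 ± 0.71 (adjusted p = 0.0252) without BALB/c water 0 h replicate 1.

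**Figure D2:**
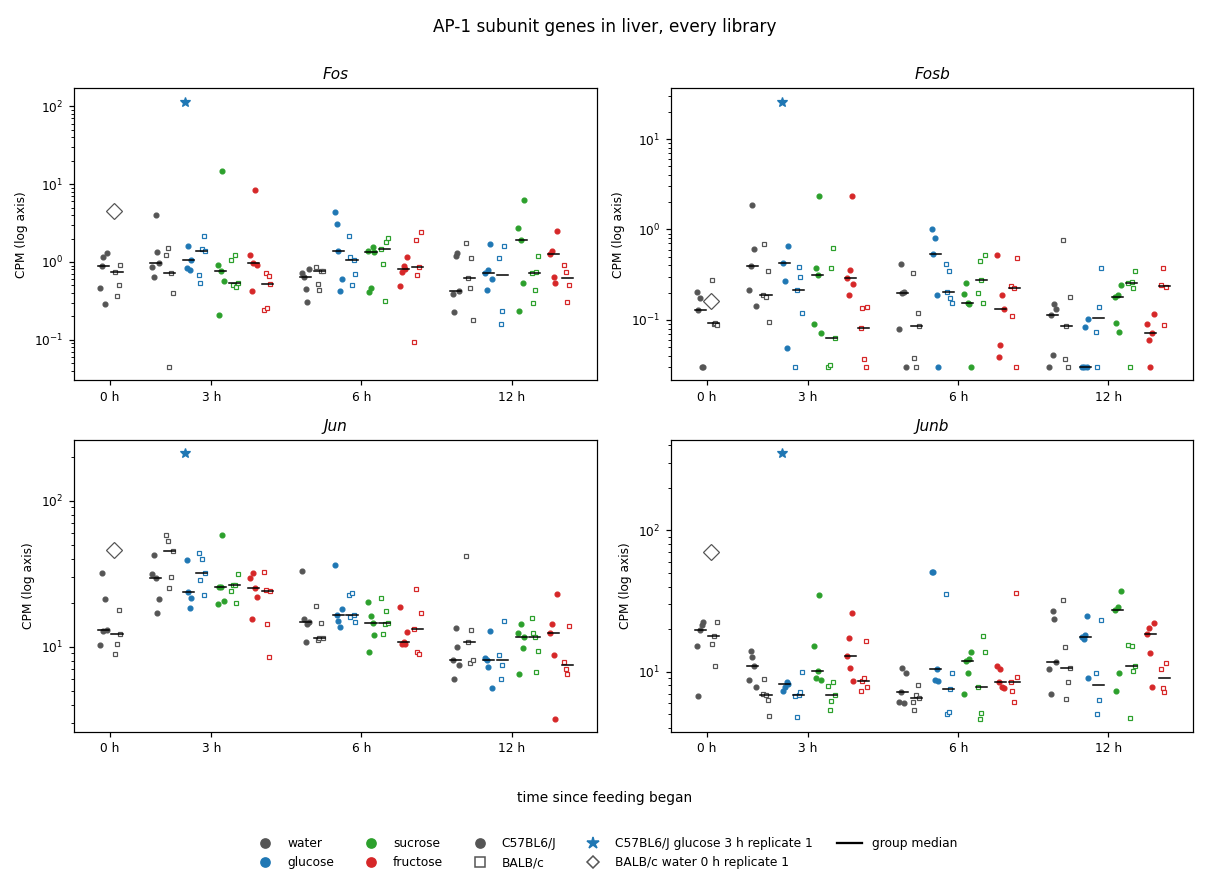
Levels of the AP-1 subunit genes Fos, Fosb, Jun and Junb (CPM, log axes) in every library, by time, drink (colour) and strain (filled circles C57BL6/J, open squares BALB/c), with group medians as bars and libraries at 0 drawn at the lower edge. Jun is highest at 3 h and lowest at 12 h in both strains, and the star marks C57BL6/J glucose 3 h replicate 1, with Junb at 352.2 CPM.

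Over all 4 drinks, Jun and Dusp1 fell and Egr1 rose between 3 and 12 h. The count was 3 of 10 genes from 3 to 6 h, all lower, against 29.2% of all genes. From 3 to 12 h it was 7 of 10 (1 higher, 6 lower), against 54.2%, and from 6 to 12 h 3 of 10 (1 higher, 2 lower), against 51.6%. Without C57BL6/J glucose 3 h replicate 1 the counts were 2 of 10 (28.3% of all genes), 5 of 10 (53.9%) and 5 of 10 (51.8%). The calls of Fos at 6 and 12 h, of Fosb at 6 h, and of Ier3 and Btg2 at 12 h, all against 3 h, were lost without that library, and Egr1 then rose from 3 to 6 h (1.23 ± 0.31, adjusted p = 0.00111).

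Jun fell at each step over both strains together. Over the 20 C57BL6/J libraries of each time its lowest, median and highest levels were 15.4, 25.4 and 211.5 CPM at 3 h, 9.17, 14.7 and 36.5 CPM at 6 h and 3.22, 9.33 and 22.9 CPM at 12 h. In BALB/c they were 8.48, 27.6 and 58.6 CPM at 3 h, 8.90, 14.7 and 24.9 CPM at 6 h and 6.04, 9.03 and 41.5 CPM at 12 h. The ranges overlapped, with medians in the same order in both strains. The log2 fold change was −1.0 ± 0.15 from 3 to 6 h (adjusted p = 3.57e-08, 38 of 40 libraries lower) and −1.59 ± 0.15 from 3 to 12 h (adjusted p = 1.86e-16, 37 of 38 lower). Leaving out C57BL6/J glucose 3 h replicate 1 gave −0.85 ± 0.13 and −1.41 ± 0.13 (adjusted p = 1.21e-07 and 9.36e-17). From 6 to 12 h it was −0.58 ± 0.15 (adjusted p = 0.000619, 35 of 38 lower). All 3 calls were made in all 17 alternatives. Within the strains, the step from 6 to 12 h was called in C57BL6/J (−0.67, adjusted p = 0.00703) and not in BALB/c with all libraries. Without C57BL6/J glucose 3 h replicate 1 it was called in BALB/c too (−0.49 ± 0.19, adjusted p = 0.0338).

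Dusp1 fell between 6 and 12 h over both strains together. In C57BL6/J its lowest, median and highest levels were 26.5, 47.7 and 88.0 CPM at 3 h, 26.8, 39.1 and 76.6 CPM at 6 h and 10.6, 18.4 and 96.2 CPM at 12 h. In BALB/c they were 17.8, 32.3 and 79.5 CPM, 17.6, 32.0 and 54.6 CPM, and 11.5, 22.0 and 52.2 CPM. The medians of 3 and 6 h lay close together, and those of 12 h below both. Its log2 fold changes were −0.78 ± 0.12 from 3 to 12 h (adjusted p = 1.49e-08, 33 of 38 lower; −0.76 ± 0.12 without C57BL6/J glucose 3 h replicate 1) and −0.62 ± 0.12 from 6 to 12 h (adjusted p = 5.65e-06, 31 of 38 lower). Both were called in all 17 alternatives. From 3 to 12 h it was −1.15 ± 0.17 in C57BL6/J and −0.41 ± 0.17 in BALB/c (adjusted p = 5.14e-09 and 0.0464), and the BALB/c call was lost in 8 of 16 alternatives, among them the fits without C57BL6/J glucose 3 h replicate 1 and without C57BL6/J glucose 6 h replicate 5. The difference between the strains, 0.74 ± 0.24, had an adjusted p of 0.0584, and of 0.0416 without BALB/c water 0 h replicate 1. From 6 to 12 h Dusp1 was called within C57BL6/J (−0.94, adjusted p = 1.52e-06). Within BALB/c 0 of the 10 genes were called at that step, against 37.5% of all genes.

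Egr1 rose from 3 to 12 h while Jun and Dusp1 fell. In C57BL6/J its lowest, median and highest levels were 0.624, 2.08 and 556.1 CPM at 3 h, 0, 4.11 and 27.5 CPM at 6 h and 2.72, 23.7 and 255.8 CPM at 12 h. In BALB/c they were 0.625, 1.25 and 17.7 CPM, 1.32, 3.57 and 19.9 CPM, and 1.09, 3.56 and 43.2 CPM. The rise to 12 h was in the medians of both strains, and in BALB/c the median was as high at 6 h as at 12 h. The log2 fold change from 3 to 12 h was 1.80 ± 0.36 (adjusted p = 7.92e-06, 35 of 38 libraries higher), and 2.5 ± 0.32 (adjusted p = 3.28e-11) without C57BL6/J glucose 3 h replicate 1. From 6 to 12 h it was 1.25 ± 0.34 (adjusted p = 0.00129, 25 of 38 higher). Without that library, from 3 to 12 h, it was 3.42 ± 0.46 in C57BL6/J and 1.59 ± 0.45 in BALB/c (adjusted p = 4.56e-10 and 0.00242), and the strain difference of −1.83 ± 0.62 had an adjusted p of 0.0825.

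Fosb fell from 3 to 12 h in C57BL6/J, and this change differed between the strains. Its lowest, median and highest levels in C57BL6/J were 0.0489, 0.334 and 26.0 CPM at 3 h and 0, 0.0867 and 0.243 CPM at 12 h. In BALB/c they were 0, 0.136 and 0.692 CPM at 3 h and 0, 0.201 and 0.766 CPM at 12 h. Only C57BL6/J had the lower median at 12 h. Its log2 fold changes were −3.73 ± 0.52 in C57BL6/J (adjusted p = 1.19e-09, 20 of 20 libraries lower) and 0.15 ± 0.50 in BALB/c (adjusted p = 0.848). The interaction of 3.88 ± 0.73 had an adjusted p of 0.000159, where 3.46% of all genes had one called. Without C57BL6/J glucose 3 h replicate 1 the interaction was 2.89 (adjusted p = 0.00278), and it was called in all 16 alternatives that fitted it. At a median of 4 reads per library, these levels rest on few molecules.

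The other members moved less or depended on 1 library. Junb did not pass from 3 to 12 h with all libraries, and without C57BL6/J glucose 3 h replicate 1 it rose by 0.59 ± 0.17 (adjusted p = 0.00171). Fos had −0.97 ± 0.31 from 3 to 12 h (adjusted p = 0.00507, 24 of 38 lower) with all libraries and −0.40 without it (adjusted p = 0.193). Ier3 had −0.52 ± 0.18 (adjusted p = 0.0082) and −0.31 (adjusted p = 0.0919) without it. Btg2 had −0.54 ± 0.19 (adjusted p = 0.0105) and −0.27 (adjusted p = 0.149) without it.

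**Figure D3:**
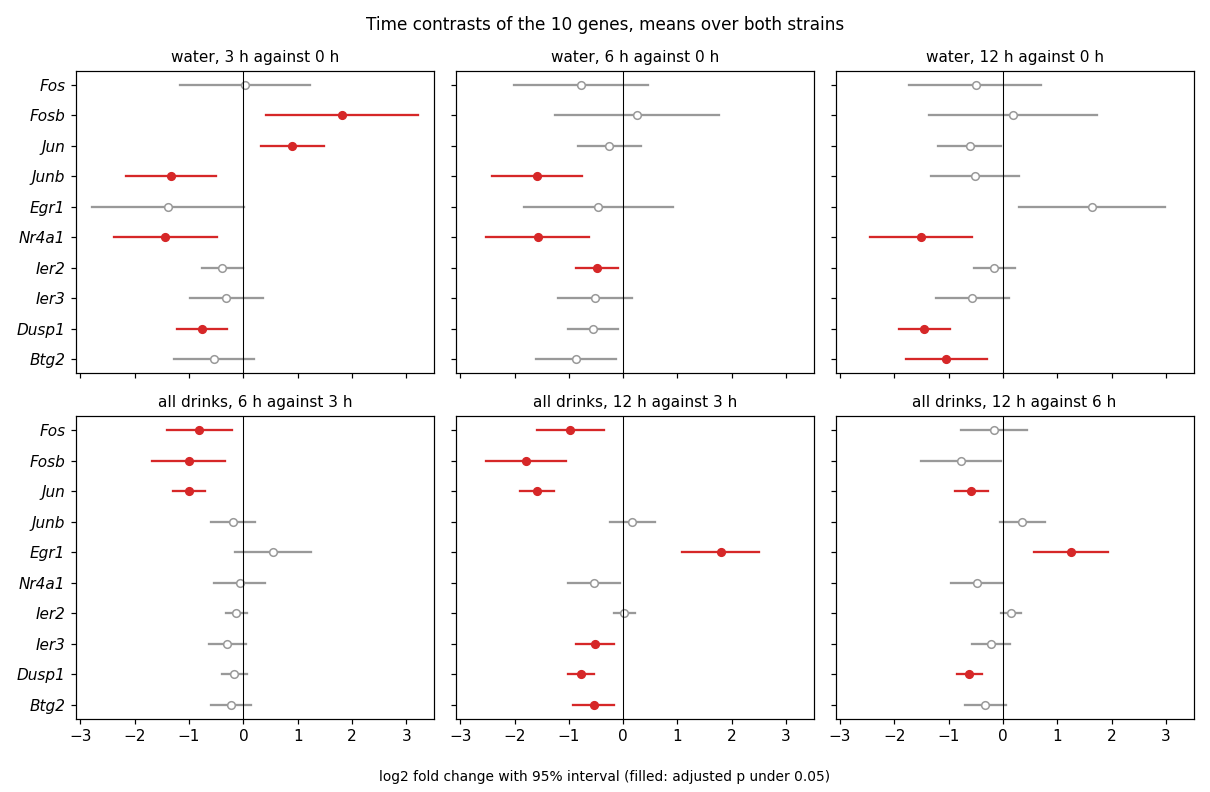
Log2 fold changes of the 10 genes with 95% intervals in 6 time comparisons, means over both strains with all libraries in the fit, filled where the edgeR adjusted p is under 0.05. Jun lies right of 0 in water 3 h against 0 h (0.90) and left of 0 in 12 h against 3 h (−1.59), opposite to Egr1 (1.80).

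From 3 to 12 h the medians of Jun, Dusp1 and Egr1 moved in the same direction where muscle RNA was low. These libraries mix strains and drinks, and are few before 12 h. In those with summed muscle markers under 10 CPM (3 of 10 at 0 h, 7 of 40 at 3 h, 5 of 40 at 6 h, 31 of 38 at 12 h) the median of Jun was 17.9, 25.6, 14.6 and 8.81 CPM at 0, 3, 6 and 12 h. That of Dusp1 was 33.6, 53.5, 32.7 and 21.4 CPM and that of Egr1 3.37, 0.952, 4.47 and 7.21 CPM. For Dusp1 the median at 3 h was above those at 0 and 6 h, unlike in the water comparison and in the medians over all libraries. From 3 to 12 h the low-muscle median of Fos went from 0.907 to 0.74 CPM, Fosb from 0.294 to 0.0931, Junb from 12.9 to 13.6, Nr4a1 from 1.66 to 1.16, Ier2 from 25.3 to 34.2, Ier3 from 1.81 to 1.6 and Btg2 from 6.24 to 4.83 CPM. None of these low-muscle values was tested. The 7 libraries at 3 h include C57BL6/J glucose 3 h replicate 1, and the 3 at 0 h include C57BL6/J water 0 h replicate 2. No low-muscle medians were taken without them. Neutrophil markers had a summed median of 3.65 CPM at 3 h and 6.54 CPM at 12 h, and their part in the rise of Egr1 was not tested.

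**Figure D4:**
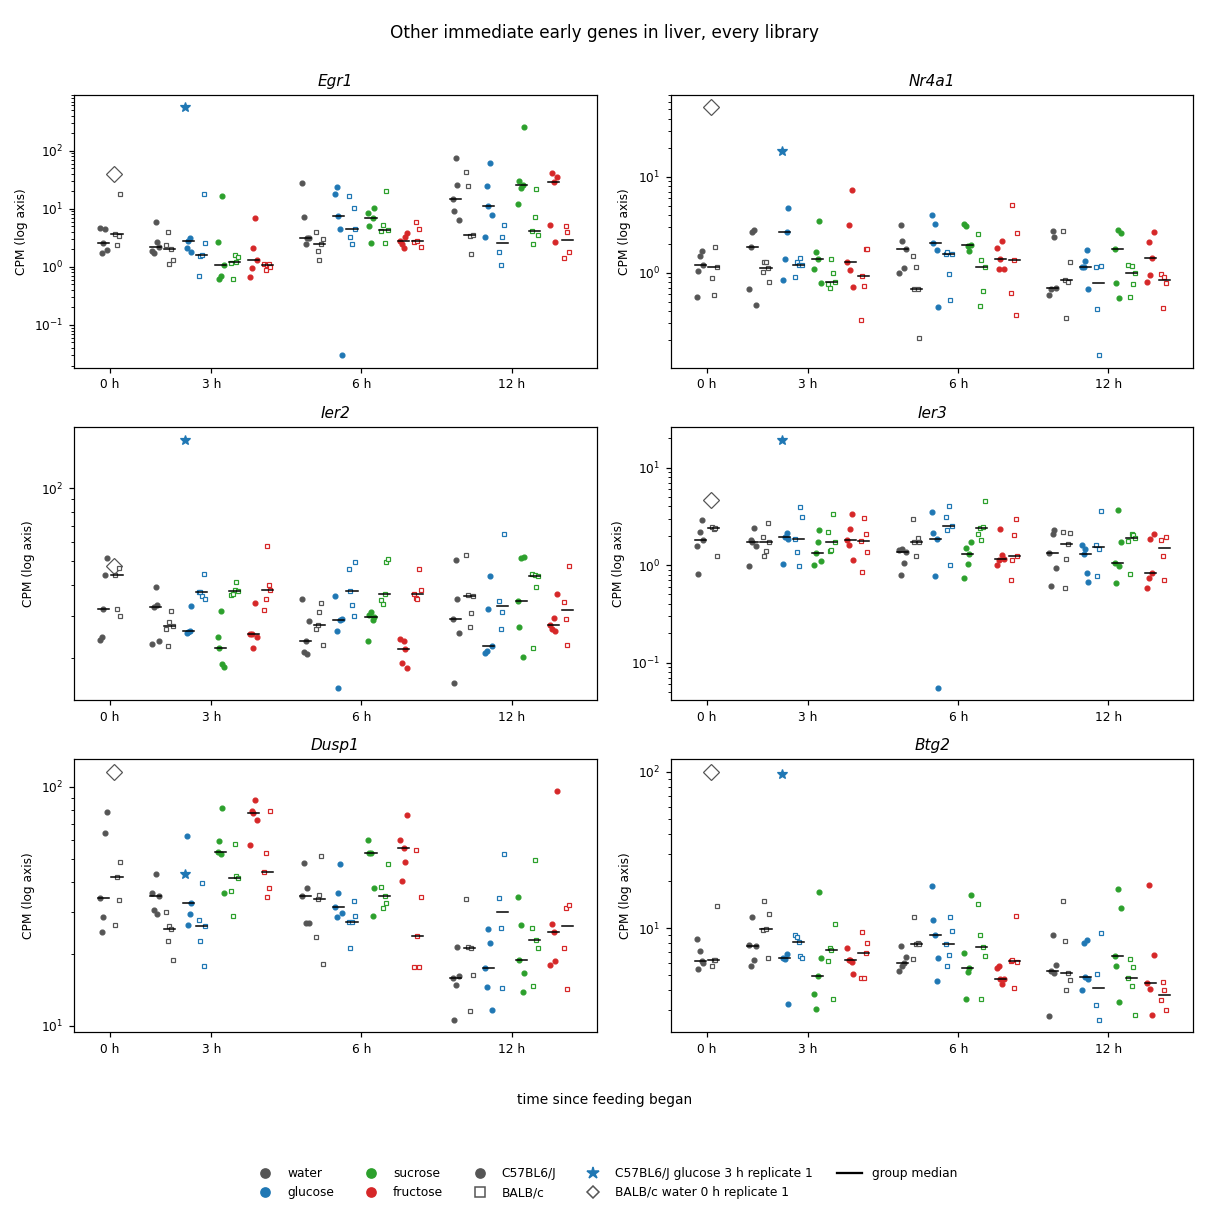
Levels of Egr1, Nr4a1, Ier2, Ier3, Dusp1 and Btg2 (CPM, log axes) in every library, by time, drink (colour) and strain (filled circles C57BL6/J, open squares BALB/c), with group medians as bars and a library at 0 drawn at the lower edge. Dusp1 in the fructose groups lies above water at 3 h, Egr1 in C57BL6/J is highest at 12 h (median 23.7 CPM), and the diamond marks BALB/c water 0 h replicate 1 (Nr4a1 at 52.5 CPM).

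Dusp1 was higher on fructose than on water at 3 h. With all libraries, the other call of a sugar against water was Egr1 on glucose at 3 h, which C57BL6/J glucose 3 h replicate 1 carried. At 3 h on water Dusp1 was at 35.8, 30.4, 43.2, 29.3 and 34.9 CPM in C57BL6/J and at 29.9, 22.7, 26.1, 25.4 and 18.9 CPM in BALB/c. On fructose it was at 57.1, 79.5, 78.1, 88.0 and 73.0 CPM in C57BL6/J and at 43.9, 52.8, 34.7, 37.8 and 79.5 CPM in BALB/c. Neither strain's fructose libraries overlapped with its water libraries. Fructose exceeded water by 1.06 ± 0.24 on the log2 scale (adjusted p = 0.00128), in 10 of 10 libraries, and Dusp1 was the 1 of 10 genes called, against 6.71% of all genes. The strains differed by −0.10 ± 0.47 in this effect (95% interval −1.02 to 0.83). It was called in 16 of 17 alternatives, and in the 94 libraries whose names lack a suffix a, which the labels do not explain, it was 0.81 (adjusted p = 0.123).

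The other sugars at 3 h gave smaller Dusp1 values. On sucrose it was at 53.5, 59.5, 52.3, 81.3 and 36.1 CPM in C57BL6/J and at 36.6, 28.8, 57.6, 42.4 and 41.6 CPM in BALB/c. Sucrose against water had a log2 fold change of 0.73 ± 0.23 (adjusted p = 0.0718, 10 of 10 libraries higher), so none of the 10 genes passed, against 2.92% of all genes. Without BALB/c water 0 h replicate 1, which is not in the comparison, the adjusted p was 0.0499. On glucose Dusp1 was at 43.1, 62.3, 26.5, 29.5 and 32.7 CPM in C57BL6/J and at 27.6, 22.6, 39.5, 17.8 and 26.2 CPM in BALB/c, overlapping with water in both strains (0.14 ± 0.23, adjusted p = 0.995, 95% interval −0.32 to 0.60). Fructose exceeded glucose by 0.92 ± 0.23 (adjusted p = 0.0152, 10 of 10 libraries higher), and by 0.94 ± 0.24 (adjusted p = 0.0197) without C57BL6/J glucose 3 h replicate 1. This call was lost in 3 of 17 alternatives. Sucrose and fructose at 3 h had no gene called of the 16886 (0% of all genes).

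With all libraries, glucose against water at 3 h had 1 of 10 genes called (Egr1, 3.22 ± 0.73, adjusted p = 0.0229), against 0.19% of all genes, with 5 of 10 libraries higher. Without C57BL6/J glucose 3 h replicate 1, edgeR called none, against 0.0296% of all genes, and 0 of the 10 had an unadjusted p under 0.05. Egr1 was then at 0.46 ± 0.63 (adjusted p = 0.966, 95% interval −0.79 to 1.71). In C57BL6/J alone, Fos, Junb and Egr1 had log2 fold changes of 3.94, 2.82 and 5.31 (adjusted p = 0.00984, 0.00787 and 0.00504) with the library, and −0.52, −0.44 and −0.21 without it. Of the pairs of sugars, fructose against glucose had 4 of 10 genes called (Fos −2.34, Jun −1.01, Egr1 −3.90 and Dusp1), against 2.35% of all genes, and without the library only Dusp1, against 2%. Sucrose against glucose had 1 of 10 (Egr1, −3.34 ± 0.74, adjusted p = 0.0192), against 0.213%, and none without the library, against 0.101%.

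At 6 h Junb was high in some glucose libraries. It was at 50.8, 51.2, 8.72, 10.5 and 8.60 CPM in C57BL6/J and at 35.3, 5.02, 5.22, 7.58 and 9.79 CPM in BALB/c, against 6.01 to 10.6 CPM and 5.40 to 8.03 CPM on water. Only replicates 1 and 2 of C57BL6/J and replicate 1 of BALB/c stood well above water. The log2 fold change was 1.33 ± 0.42 (adjusted p = 0.103), so none of the 10 genes was called at 6 h, against 0.906% of all genes for glucose, 1.14% for sucrose and 1.23% for fructose. With C57BL6/J glucose 3 h replicate 1 left out of the shared estimate of spread it was 1.32 ± 0.33 (adjusted p = 0.0287), the 1 of 10 genes called, against 1.01%.

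At 12 h no sugar had a member called, against 0.0651% of all genes for glucose, 0.00592% for sucrose and 0.00592% for fructose. Over the 6 comparisons of a sugar with water at 6 and 12 h, edgeR called 0 of 60 tests, 3 had an unadjusted p under 0.05 and DESeq2 called 1. The 3 pairs of sugars at 6 h had none of the 10 genes called, with 0.255% of all genes for fructose against glucose, 0.0118% for sucrose against glucose and 0% for sucrose against fructose. At 12 h those shares were 0%, 0.00592% and 0%. Over these 6 pairs edgeR called 0 of 60 tests, 3 had an unadjusted p under 0.05 and DESeq2 called 0. For sucrose at 3 h, against water and against fructose, edgeR called 0 of 20, 1 had an unadjusted p under 0.05 and DESeq2 called 1. The effect of a sugar differed between the strains in 0 of 90 tests by edgeR, where 10 had an unadjusted p under 0.05 and DESeq2 called 0.

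The strains differed in 6 of the 10 genes in fed mice. Fos, Junb, Egr1, Nr4a1 and Dusp1 were lower and Ier2 higher in BALB/c, against 53.9% of all genes called. Egr1 had a lowest, median and highest level of 0, 5.13 and 556.1 CPM over 60 fed C57BL6/J libraries and of 0.625, 2.58 and 43.2 CPM over 58 fed BALB/c libraries. Junb was at 6.01, 10.7 and 352.2 CPM against 4.67, 7.72 and 36.0 CPM, and Ier2 at 15.2, 26.0 and 158.0 CPM against 22.1, 36.0 and 64.6 CPM. The ranges overlapped in each gene, and only Ier2 had the higher median in BALB/c.

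The strain log2 fold changes over the 12 pairs of fed groups were −1.63 ± 0.29 for Egr1 (adjusted p = 7.13e-07, 49 of 58 libraries lower), −1.02 ± 0.25 for Fos (adjusted p = 0.000295, 38 of 58), −0.86 ± 0.20 for Nr4a1 (adjusted p = 0.000104, 51 of 58) and −0.78 ± 0.17 for Junb (adjusted p = 4.94e-05, 48 of 58). Ier2 was higher by 0.31 ± 0.08 (adjusted p = 0.00044, 48 of 58). These 5 were called in all 17 alternatives, including those without C57BL6/J glucose 3 h replicate 1. Dusp1 (−0.24 ± 0.10, adjusted p = 0.03) was lost in 3 of 17. Ier3 was called only without that library (0.36 ± 0.13, adjusted p = 0.0123).

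In fasted mice Nr4a1 and Btg2 were higher in BALB/c (3.24 ± 0.70 and 1.99 ± 0.53, adjusted p = 0.000211 and 0.00375), 2 of 10 genes against 16.3% of all genes. Without BALB/c water 0 h replicate 1 they were −0.11 and 0.27 (adjusted p = 0.942 and 0.8), and no gene of the 10 was called, against 12.4%. The strain difference in the water response of Nr4a1 at 3 h (−3.84 ± 0.96, adjusted p = 0.0421, the 1 of 10 genes against 0.338% of all genes) and at 6 h (−4.37 ± 0.97, adjusted p = 0.0158, the 1 of 10 against 0.302%) was likewise lost without that library.

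Libraries of 1 group that were high in 1 of these genes tended to be high in the others. The deviations of log2 CPM from the group means were correlated for each of the 45 pairs of genes over all libraries, with a permutation test of 100000 resamples within groups, adjusted over the 45 pairs. The median Pearson r was 0.46 and the median Spearman rho 0.34. By r, 43 of 45 pairs had an adjusted permutation p under 0.05, and by rho 39, all of them positive. Pairs of other genes were not tested, so no general rate stands beside these counts. Without C57BL6/J glucose 3 h replicate 1 the median r was 0.37 with 39 pairs (35 by rho). Without both high libraries it was 0.34 (rho 0.28) with 36 pairs (30 by rho).

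The closest pairs were Junb with Ier2 (r = 0.72, and 0.60 without both libraries), Fos with Junb (0.70 and 0.58) and Junb with Egr1 (0.66 and 0.53). The lowest values over all libraries were those of Dusp1 with Ier3 (0.18) and with Egr1 (0.22). Deviations of 2 genes in a library share its depth and its tissue sample. Over the 26 group means, which share time, drink and strain, Egr1 ran opposite to Dusp1 (r = −0.56) and Jun (−0.50) and along with Junb (0.56).

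**Figure D5:**
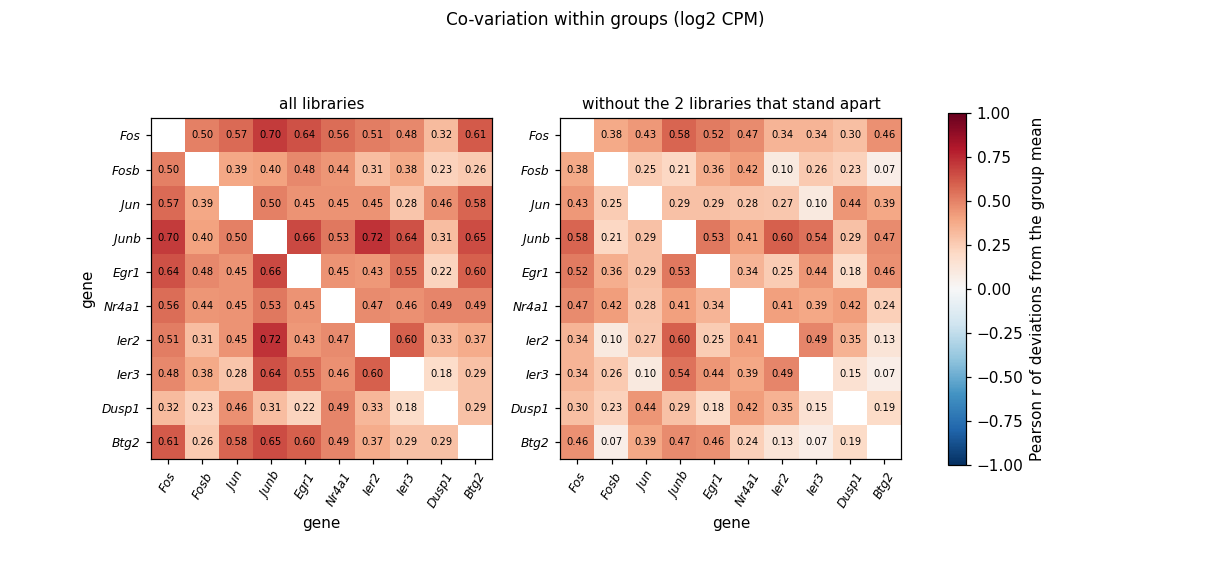
Pearson r of the deviations of log2 CPM from the group mean for each pair of the 10 genes, over all libraries (left) and without C57BL6/J glucose 3 h replicate 1 and BALB/c water 0 h replicate 1 (right). All pairs are above 0 on both sides, with Junb and Ier2 the closest pair on each (0.72 and 0.60).

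The genes whose pattern was most like the mean of the 10 were taken from 9051 other genes with a mean of at least 5 CPM. Over group means this mean stood for some members more than others: the r of a member with the mean of the other 9 was 0.83 for Fos, 0.75 for Nr4a1 and 0.58 for Btg2, but 0.12 for Dusp1, 0.05 for Ier2 and −0.10 for Egr1. Over within-group deviations without C57BL6/J glucose 3 h replicate 1 it lay between 0.40 (Fosb) and 0.70 (Fos and Junb). Over the 26 group means the most alike were Fosl2, a further AP-1 subunit (r = 0.71), Rasip1 and Phldb1 (both 0.69), Adcy4 (0.68) and Nfkbiz (0.67). Without C57BL6/J glucose 3 h replicate 1, Fosl2 (0.75) and Phldb1 (0.72) again led, followed by Shank3, Cd97 and Mark2. Over the within-group deviations of the other 127 libraries they were Rhbdf2 (0.62), Csrnp1 (0.59), Igfbp1 (0.57), Klf6 (0.55) and Ppp1r15a (0.54). BALB/c water 0 h replicate 1 stayed in all these measures. There Fosl2 (64.3 CPM), Csrnp1 (41.9), Klf6 (39.2) and Ppp1r15a (26.1) had their highest level of all libraries. Igfbp1 was at 10550.1 CPM there, against 46.0 to 99.5 CPM in its group. The part of that library in the likeness was not tested. Csrnp1, Klf6 and Ppp1r15a are themselves known as early response genes.

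Of 18 other immediate early transcription factors tested, 2 rose and 5 fell at 3 h on water, 7 fell at 6 h and 7 fell at 12 h, with none rising at those later times. Of all genes, 25.4%, 28.8% and 17.6% were called at these times. The list's median log2 fold changes were −0.27, −0.50 and −0.77. BALB/c water 0 h replicate 1 was high in this list too (784.0 CPM summed, against 320.8 to 397.0 in its group). Without it 3 rose and 4 fell at 3 h, 2 rose and 7 fell at 6 h and 4 fell at 12 h, with medians of 0.00, −0.21 and −0.44. Atf3, a stress-induced factor, rose at 3 h (2.03 ± 0.35, adjusted p = 2.22e-06) and fell from 3 to 12 h (−2.40 ± 0.19, adjusted p = 7e-22), in the directions of Jun. Jund, a broadly expressed AP-1 subunit, fell from 3 to 12 h (−0.93 ± 0.10, adjusted p = 3.71e-14). Both of these 3 to 12 h values include C57BL6/J glucose 3 h replicate 1. There Atf3 was at 43.4 CPM (median of all libraries 2.59) and Jund at 223.8 CPM (median 46.7), the highest of all libraries. Cebpb, a liver factor of gluconeogenesis and the acute phase, fell at 3 h on water (−1.56 ± 0.22, adjusted p = 8.87e-09). Fosl2 fell at 6 h (−1.37 ± 0.22, adjusted p = 1.84e-07), and by less without BALB/c water 0 h replicate 1 (−0.85 ± 0.18, adjusted p = 0.000148). Klf10 rose on sucrose (1.65 ± 0.31, adjusted p = 0.000201) and on fructose (1.20 ± 0.30, adjusted p = 0.00559) against water at 3 h, while Atf3 fell on fructose (−1.10 ± 0.34, adjusted p = 0.0308).

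Of 32 further immediate early and feedback genes, 5 rose and 11 fell at 3 h on water, 3 rose and 14 fell at 6 h, and 2 rose and 9 fell at 12 h, against the same shares of all genes. BALB/c water 0 h replicate 1 summed to 4013.6 CPM for this list, against 1838.1 to 2425.3 CPM in its group. Without it 5 rose and 7 fell at 3 h, 3 rose and 9 fell at 6 h, and 2 rose and 8 fell at 12 h. Cyr61, a secreted matrix protein, rose at 3 h (1.32 ± 0.22, adjusted p = 1.38e-06). Zfp36l2, which speeds mRNA decay, fell (−1.17 ± 0.17, adjusted p = 3.64e-08), as did Nfkbia, the inhibitor of NF-kB (−1.23 ± 0.21, adjusted p = 1.63e-06). Plk3 fell at 6 h (−2.07 ± 0.35, adjusted p = 7.69e-07) and at 12 h (−2.74 ± 0.36, adjusted p = 1.44e-09), with values of −1.43 and −2.09 without that library, in which it was at 580.9 CPM (adjusted p = 0.000218 and 2.34e-07). Nfkbiz rose on glucose at 3 h (1.33 ± 0.29, adjusted p = 0.0156) with all libraries, and none of the 31 genes of this list then tested was called without C57BL6/J glucose 3 h replicate 1.

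Upstream of these genes, 26 kinases and factors were followed. At 3 h on water 2 rose and 8 fell, against 25.4% of all genes, with a median log2 fold change of −0.06. The same 10 were called without BALB/c water 0 h replicate 1. At 6 h 13 of the 26 were called, against 28.8% of all genes, and at 12 h 7, against 17.6%. Of these, 10 and 6 were called without that library. Elk4, an ETS partner of serum response factor, fell at 3 h (−0.76 ± 0.09, adjusted p = 1.09e-11; −0.60 ± 0.08 without that library) and rose from 3 to 12 h (0.47 ± 0.04, adjusted p = 3.6e-17). Crtc2, the cAMP-dependent coactivator of CREB, fell at 3 h (−0.86 ± 0.16, adjusted p = 4.49e-06; −0.75 ± 0.15 without it). Mapk14, which encodes the p38 kinase that Dusp1 inactivates, fell from 3 to 12 h (−0.44 ± 0.04, adjusted p = 3.67e-18). Rps6ka1 rose on fructose at 3 h (0.60 ± 0.12, adjusted p = 0.000375).

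Genes known to respond to glucocorticoids and heat shock moved along with time. Of 11 glucocorticoid-responsive genes 9 fell at 3 h on water (median log2 fold change −1.26), against 25.4% of all genes. Without BALB/c water 0 h replicate 1, in which the sum of this list was high, 6 fell (median −1.20). Errfi1, which restrains EGF receptor signalling, was among them in both fits (−1.26 ± 0.24, adjusted p = 2.05e-05, and −1.20 ± 0.25). All 8 heat shock genes rose at 3 h (median 1.51, and 1.41 without that library, with all 8 called), and all 8 fell from 3 to 12 h. Bag3 rose by 1.52 ± 0.15 at 3 h (adjusted p = 3.33e-14), when Jun and Atf3 were also high, and Hspa8 fell by 3.01 on the log2 scale from 3 to 12 h (−3.01 ± 0.10, adjusted p = 4.23e-50). The value of Hspa8 includes C57BL6/J glucose 3 h replicate 1, its highest library (4361.6 CPM).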

How the data were processed

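Total RNA of frozen liver was sequenced in 128 libraries. The authors deposited raw read counts per gene and FPKM values. The tools named, per the submitters' processing notes and with no role or order, are CASAVA, STAR 2.5, HTSeq 0.6.1 and DESeq2, and the builds mm10 and GRCm38. Of the strand setting these sources say nothing. The deposited count is the unit tested, and the authors' FPKM values served only to order levels between genes.

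Groups came from the labels. Counts were fitted with edgeR 4.0.16 (R 4.3.3, limma 3.58.1): filterByExpr (16886 genes kept), TMM scaling, 1 mean for each of 26 groups, a robust quasi-likelihood test and Benjamini-Hochberg adjustment over all genes of a comparison, called at 0.05. Standard errors are the fold change divided by the root of F. CPM uses TMM-scaled library sizes, with a prior count of 1 on the log2 scale. 0 libraries were identical within a group. Intervals cover the spread between libraries. On simulated counts for water 12 h against 0 h (16588 genes), 85% of 100 genes changed by 1 on the log2 scale and 99% of 100 changed by 2 were recovered. There 10 unchanged genes were called. The changed genes had a mean above 1 CPM and no single high libraries were simulated, so these rates do not cover Fosb or such libraries.

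The 10 genes and the lists were chosen with earlier results of these data known. All 10 are named, and of each list up to 3 called genes with the smallest p per comparison, plus the 5 genes (mean of at least 5 CPM) most like the set on each measure. The likeness over group means without C57BL6/J glucose 3 h replicate 1 was added after seeing the data.

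Alternatives were DESeq2 1.42.0, RLE size factors, every gene kept whatever its counts, a replicate block, the suffix a on 34 library names (meaning not given in the labels) as covariate or left out, fits on the compared libraries alone, and leaving out each replicate or named libraries. Leaving out BALB/c water 0 h replicate 1, C57BL6/J water 0 h replicate 2, C57BL6/J glucose 6 h replicate 5 or both high libraries was chosen after seeing the data, for the gene lists on water too.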

Additional observations from a re-analysis of the deposited data

Results flagged for a closer look

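In 260 groups of 4 or 5 values (10 genes in 26 groups), the highest or lowest library lay far from the others of its group by Dixon's test in 19, where chance gives about 1 in 20; values here are log2 CPM. Of the 19, 7 were in the 2 libraries high in these genes. In C57BL6/J glucose 3 h replicate 1 they were Fos at 6.84, Junb at 8.46, Egr1 at 9.12, Ier2 at 7.30, Ier3 at 4.28 and Btg2 at 6.59. In BALB/c water 0 h replicate 1 it was Nr4a1 at 5.72.

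Other high values were Jun at 5.87 in C57BL6/J sucrose 3 h replicate 4, Fosb at 1.26 in C57BL6/J fructose 3 h replicate 4, Junb at 4.05 and 5.17 in replicate 4 of BALB/c fructose 3 h and BALB/c fructose 6 h, Ier3 at 1.25 in C57BL6/J fructose 6 h replicate 3, and Dusp1 at 6.59 in C57BL6/J fructose 12 h replicate 5. Low values were Egr1 at −4.63 (0 reads) in C57BL6/J glucose 6 h replicate 5, Fosb at −4.63 (0 reads) in C57BL6/J sucrose 6 h replicate 5 and Ier2 at 4.56 in C57BL6/J sucrose 6 h replicate 1. In BALB/c sucrose 12 h replicate 2, Fosb at −3.83, Ier2 at 4.47 and Ier3 at −0.24 were all low.

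In 3 results a change differed between the strains by an interaction test. The water response of Nr4a1 differed by −3.84 at 3 h and by −4.37 at 6 h on the log2 scale. The first of these calls was lost in 12 of 17 alternatives and the other in 7 of 17, in both cases also without BALB/c water 0 h replicate 1, the library at 5.72 above. The change of Fosb from 3 to 12 h differed by 3.88, and this was called in all 16 alternatives that fitted it.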

How the results depend on the processing

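Of 78 called values of the 10 genes, over all comparisons including those within each strain, 78 were called by DESeq2 and with the name suffix as covariate, 76 with RLE size factors, 66 without the low-count filter, 72 with the replicate block, 46 in libraries without the suffix, 58 without C57BL6/J glucose 3 h replicate 1, 57 without BALB/c water 0 h replicate 1, 43 without both, and 38, 64, 59, 59 and 60 without replicates 1, 2, 3, 4 and 5. On the compared libraries alone it was 26 of 40. Fosb at 3 h on water could not be fitted on those. The cause of changes was not tested, except that fewer libraries enter when some are left out.

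Counts of the 10 genes called that changed by over 1.5 times are given per comparison. For water at 3 h (5) it was 3 without the suffix or both high libraries, at 6 h (3) 5 by DESeq2 or without the suffix, and at 12 h (3) 1 without the suffix or on the compared libraries alone. For 6 h against 3 h (3) it was 1 and for 12 h against 3 h (7) 4 without the suffix, and for 12 h against 6 h (3) 5 on the compared libraries alone and 6 without both. For glucose at 3 h (1) it was 2 by DESeq2 and 0 with the replicate block, without the suffix, on the compared libraries alone or without both. For sucrose at 3 h (0) it was 1 by DESeq2, on the compared libraries alone or without both, for fructose at 3 h (1) 0 without the suffix, and for glucose at 6 h (0) 1 by DESeq2 or without both. For fructose against glucose at 3 h (4) it was 1, and for sucrose against glucose (1) 0, without the suffix, on the compared libraries alone or without both. For the strains at 0 h (2) it was 0 on the compared libraries alone or without both. The strain difference in the water response (1 at 3 h and 1 at 6 h) was 0 without the suffix, on the compared libraries alone or without both, at 3 h also without the low-count filter or with the replicate block, and at 12 h (0) it was 1 by DESeq2.

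Leaving out 1 replicate number or 1 named library gave 0 to 6 for water at 3 h, 1 to 4 at 6 h, 1 to 3 for 6 h against 3 h, 3 to 5 for 12 h against 6 h, 0 to 1 for glucose at 3 h, sucrose at 3 h and glucose at 6 h, 1 to 4 for fructose against glucose, 0 to 2 for sucrose against glucose, 0 to 2 for the strains at 0 h and 0 to 1 for both strain differences.

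Signs turned in log2 fold changes as follows. Nr4a1 on water, −1.44, −1.57 and −1.50 at 3, 6 and 12 h, was 0.24, 0.11 and 0.17 without BALB/c water 0 h replicate 1, 0.22, 0.09 and 0.18 without both libraries, and 0.27 at 3 h without replicate 1. In BALB/c alone it was 0.02 at 3 h without replicate 1, and 0.12 at 12 h without that library and without both. Its strain difference at 0 h was −0.11, −0.12 and −0.29 without that library, both, and replicate 1. Btg2 in BALB/c at 6 h on water was 0.06, 0.05 and 0.15 in the same order. In C57BL6/J glucose against water at 3 h, without C57BL6/J glucose 3 h replicate 1 or both libraries, Fos was −0.52, Junb −0.44 and Egr1 −0.21, and without replicate 1 −0.69, −0.53 and −0.35. Junb in C57BL6/J from 3 to 6 h was 0.01 without that library or both. At the other end, leaving out 1 replicate number gave Nr4a1 on water values down to −1.68, −1.87 and −1.68 at 3, 6 and 12 h, and in BALB/c alone down to −3.74 at 3 h and −3.53 at 12 h; its strain difference at 0 h reached 3.65, Btg2 in BALB/c at 6 h −2.08, Fos, Junb and Egr1 on glucose in C57BL6/J 4.90, 3.23 and 5.99, and Junb in C57BL6/J from 3 to 6 h −0.97.

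Replicate numbers recur across groups, and the main tests hold no replicate block. Same-numbered libraries had a mean r of 0.077 over 1576 pairs (from −0.430 to 0.482), against −0.019 for different numbers. Yet 86 libraries of the series correlated best with their own number (equally likely numbers would give about 1 in 5), a hint from the data, not the design, that libraries of a number share something. With the block Egr1 rose at 12 h on water (1.80, edgeR adjusted p = 0.0468) and the strain difference of Dusp1 from 3 to 12 h was called (0.75, adjusted p = 0.0493). Depth limits Fosb most, at a median of 4 reads.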

Other observations

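Single high libraries of these genes were also seen at 12 h. In C57BL6/J sucrose 12 h, Egr1 was at 12.0, 29.6, 22.7, 25.2 and 255.8 CPM in replicates 1 to 5, so replicate 5 alone was high. In BALB/c water 12 h, Fosb was at 0.766, 0.0368, 0.085, 0.028 and 0.177 CPM, with replicate 1 the highest, as it also was for Jun at 41.5 CPM against 7.7 to 13.1 CPM. Btg2, which showed no call from 3 to 12 h over both strains without C57BL6/J glucose 3 h replicate 1, fell in BALB/c in that fit (−0.63 ± 0.23, edgeR adjusted p = 0.0222).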
